A study of Bos grunniens and Bos grunniens x Bos taurus with 6 samples.

Results

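The genes described here are 10 features of the testis data that the deposited feature lists name as cytotoxic or T cell genes, out of 26961 features in all. They were taken by symbol, and each symbol matched a single feature. The cytotoxic genes are NKG7, CCL5, GZMA and CST7. The T cell receptor genes are TRDC, CD3D and CD3G. IL7R, LTB and GPR183 make up the remaining group. The levels were read in 29243 kept cells of 6 single-cell libraries. Within these, 1441 cells were gated as lymphocytes (T and NK cells) by markers that included none of the 10 genes.

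T cells and natural killer (NK) cells patrol tissues and can kill other cells by releasing granules that hold proteases such as granzymes. NKG7 codes for a membrane protein of those granules, and GZMA for granzyme A, one of the granule proteases. CST7 codes for cystatin F, an inhibitor of cysteine proteases that process granule enzymes. CCL5 codes for a chemokine that draws other leukocytes. CD3D and CD3G code for signalling chains of the T cell receptor. TRDC codes for the constant region of the delta chain of that receptor, and its transcripts are also known from human NK cells. IL7R codes for the interleukin-7 receptor, which keeps naive and memory T cells alive. LTB codes for lymphotoxin beta, a ligand in the building of lymphoid tissue, and GPR183 for an oxysterol receptor that guides the migration of lymphocytes and myeloid cells. The testis is known as an immune-privileged organ in which macrophages are the most studied leukocytes.

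The testis tissue came from a sexually mature cattle-yak, the hybrid of cattle and yak (1 library, age not in the labels), and from yak (Bos grunniens), and single cells were read with 10x Genomics chemistry. The yak were prepubertal at 6 months (replicates 1 and 2), adolescent at 18 months (replicates 3 and 4) and sexually mature at 4 years (1 library, replicate 5). All tissue had been frozen, and it was thawed, digested with enzymes and held in culture medium before loading. The labels also carry a germ cell tag, although many somatic and blood cells were found. The labels do not state that replicates came from different animals, and the p-values therefore cover the spread between libraries, which may be technical.

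The libraries held between 9575446 and 24762829 UMIs (unique molecular identifiers, each a counted molecule). The median gated lymphocyte had between 1656.5 UMIs in the cattle-yak and 3200.5 UMIs in 18-month replicate 3. Filters differed in effect: barcodes over 20% mitochondrial UMIs numbered 2598 in 18-month replicate 3 and between 188 and 1074 in the other libraries. Levels below are CPM, meaning UMIs of a gene per 1000000 UMIs of all cells of the class. Intervals are 95% intervals that cover counting error only.

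A cell was gated as a lymphocyte when it held at least 2 of 15 lymphocyte markers and more of them than of any other class. The gate rested mainly on IL2RB, detected in 56.7% to 77.5% of gated cells by library, and on CD96, detected in 45.9% to 55.3%. Of the T cell signalling genes among those markers, LCK was detected in 1.71% to 11.4% of gated cells (5.74 to 52.2 CPM) and ZAP70 in 1.64% to 8.33% (6.30 to 37.8 CPM), while the T cell surface genes CD5 and CD6 were each at 0 in 1 library. Gated lymphocytes numbered 400 in the cattle-yak, 61 and 344 in the 6-month libraries, 360 and 117 in the 18-month libraries and 159 in the 4-year yak. They were 10.98% of kept cells in the cattle-yak, 0.825% and 6.07% at 6 months, 9.05% and 2.93% at 18 months and 3.48% at 4 years. The replicates of an age thus differed severalfold in this share. Markers of other blood cells were low in them. The 9 macrophage markers summed to between 12.2 and 76.6 CPM in gated lymphocytes and to between 6156 and 15660 CPM in gated macrophages. The 9 B or plasma cell markers summed to between 10.8 and 51.7 CPM in gated lymphocytes, the 4 granulocyte markers to between 77.6 and 107 CPM, and the mast cell markers were at 0 in 5 of 6 libraries. In the 4-year yak, 7 spermatid markers summed to 338 CPM in lymphocytes and to 7265 CPM in spermatids. The 8 Sertoli markers summed to 296 and 299 CPM in the lymphocytes of the 6-month libraries, and the 9 mural or myoid markers to 209 CPM in those of the cattle-yak. The part of these other markers in the results was not tested.

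The gate left much of the members' RNA outside. Between 23.8% (4-year yak) and 76.7% (18-month replicate 3) of CCL5 UMIs lay in gated lymphocytes, while cells that passed no gate held 16.6% to 60.5%. For IL7R the share in gated lymphocytes was 12.5% to 60.5% and for GPR183 6.06% to 62.4%. Cells with at least 3 of the 10 genes made up between 88.8% (cattle-yak) and 97.7% (6-month replicate 2) of gated lymphocytes. Among ungated cells the same mark was met by 746 of 1610 cells (46.3%) in the cattle-yak, by 3.29% and 16.0% at 6 months, by 10.5% and 9.25% at 18 months and by 22.9% at 4 years. In the non-blood classes it was met by 5.15% of cells in the cattle-yak, by 0.160% and 0.372% at 6 months, by 1.03% and 0.552% at 18 months and by 4.01% at 4 years. Cell shares are therefore shares of the cells that this gate took.

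The 10 genes marked the gated lymphocytes, with few exceptions. Among classes with at least 30 cells, 8 of the 10 had their highest level in lymphocytes in all 6 libraries. The exceptions were GZMA in the 4-year yak, where macrophages held 1 UMI, and GPR183 in 18-month replicate 4 and the 4-year yak, where macrophages were higher. The non-blood classes together (endothelial, stromal, mural, Sertoli, Leydig and germ cells) had CCL5 at 0.316% to 3.09% of the lymphocyte level and NKG7 at 0.155% to 2.80%. For LTB that share was 0.925% to 6.84%, the highest in the cattle-yak.

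**Figure D1:**
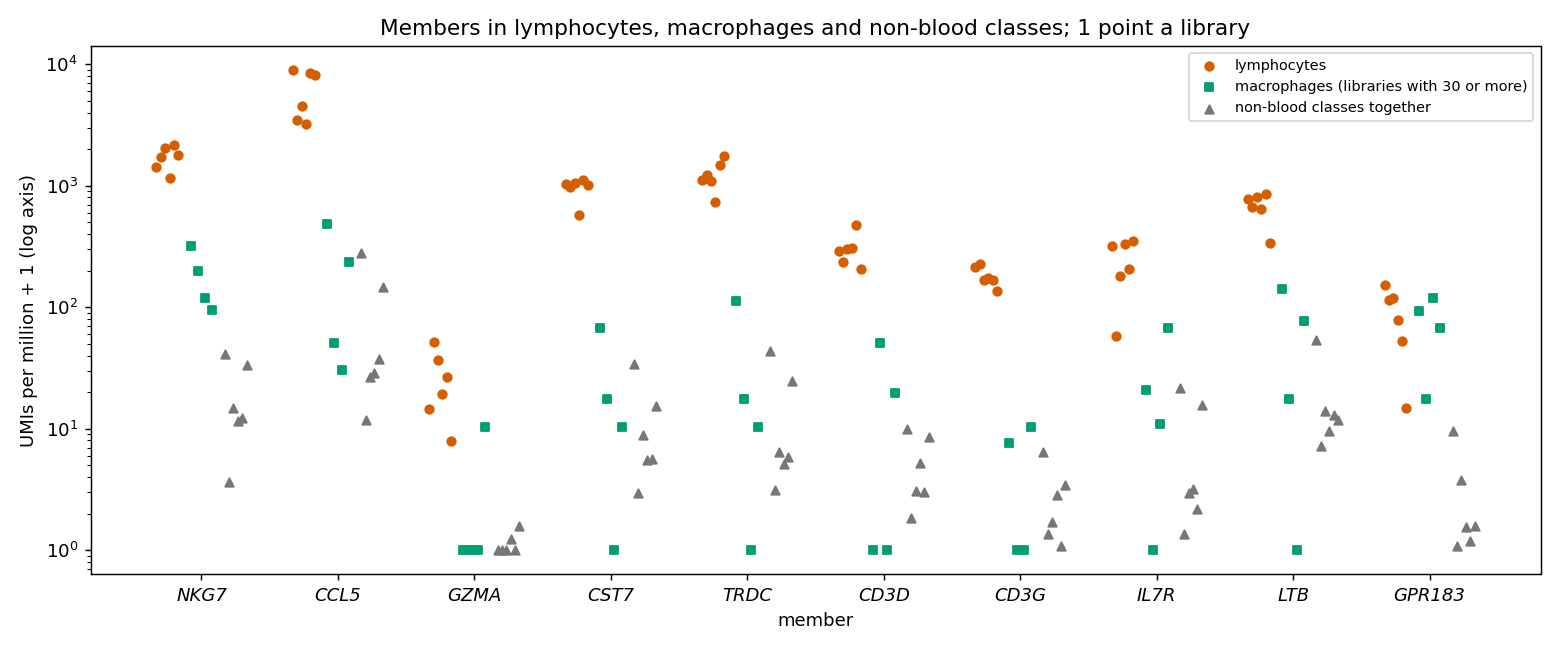
Level of each of the 10 genes (x axis) as UMIs per 1000000 plus 1 on a log axis (y axis), with 1 point a library for lymphocytes (circles), for macrophages in the 4 libraries with at least 30 of them (squares) and for all non-blood classes together (triangles). Lymphocytes stand above both other populations for 8 genes in every library drawn, while GPR183 in macrophages lies among the lymphocyte points.

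Lymphocytes were compared with gated macrophages, the other tissue leukocyte in these libraries, in the 4 libraries with at least 30 cells of both (6-month replicate 2, 18-month replicate 4, the 4-year yak and the cattle-yak). UMIs were summed by class and library and tested with edgeR's quasi-likelihood test with the library as a block. The macrophages carried C1QA (1071 to 5137 CPM), AIF1 (452 to 2552 CPM) and CSF1R (232 to 641 CPM) in all 6 libraries. These genes are among the markers that gated the cells, so their presence is no separate check. Of the other gate markers, CD163 was at 0 in the cattle-yak and in 6-month replicate 1. CD14 was at 0 in both 6-month libraries and in 18-month replicate 3, and CD68 in 6-month replicate 1. Of the 9 members tested, 8 were higher in lymphocytes. Over all 1993 genes tested, 32.6% were called in either direction, 15.7% higher and 17.0% lower in lymphocytes. The members' median log2 difference was 4.78, against 0.01 over all genes tested. GZMA was too low to be tested. Genes scarce in macrophages could pass the filter on low counts only through their lymphocyte UMIs. The direction of such genes was thus set by the filter, and the count of members called does not test the set.

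CCL5 had 8963 CPM in lymphocytes and 483 CPM in macrophages of the cattle-yak, and 8072 and 235 CPM in those of the 4-year yak. The levels were 4508 CPM in lymphocytes and 49.7 CPM in macrophages of 6-month replicate 2, and 8421 and 29.6 CPM in those of 18-month replicate 4. Lymphocytes were higher in 4 of 4 libraries, by 5.66 ± 0.47 on the log2 scale (SE; edgeR adjusted p = 2.44e-07). NKG7 had 1434 CPM in lymphocytes and 317 CPM in macrophages of the cattle-yak, and 1789 and 94.2 CPM in those of the 4-year yak. In 6-month replicate 2 it had 2028 CPM in lymphocytes and 199 CPM in macrophages, and in 18-month replicate 4 it had 2174 and 118 CPM. Its difference of 3.56 ± 0.36 (SE) was also in the same direction in all 4 libraries (edgeR adjusted p = 1.89e-06).

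The protease inhibitor gene CST7 differed by 5.52 ± 0.48, with between 0 and 10 UMIs in the macrophages of a library (SE; edgeR adjusted p = 4.08e-07). Among the T cell receptor genes, TRDC differed by 5.34 ± 0.56, CD3D by 4.78 ± 0.59 and CD3G by 5.29 ± 0.55 on the log2 scale (edgeR adjusted p = 2.70e-06, 1.35e-05 and 2.49e-06). CD3D and CD3G together had no more than 3 UMIs in the macrophages of any library, so these 2 differences rest on macrophage counts near 0. IL7R was higher in lymphocytes by 3.67 ± 0.42 and LTB by 3.62 ± 0.51 (edgeR adjusted p = 6.97e-06 and 5.22e-05).

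GPR183, which myeloid cells also use, was the exception. It had 151 CPM in lymphocytes and 92.6 CPM in macrophages of the cattle-yak, and 13.9 and 65.9 CPM in those of the 4-year yak. In 6-month replicate 2 the levels were 118 CPM in lymphocytes and 16.6 CPM in macrophages, and in 18-month replicate 4 they were 51.7 and 118 CPM. Lymphocytes were higher in 2 libraries and macrophages in the other two, and the difference was 0.16 ± 0.49 (log2, SE; edgeR adjusted p = 0.842).

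The proportion of NKG7 to CCL5 UMIs was set side by side in lymphocytes and macrophages. Of the UMIs of both genes, NKG7 made up 13.8% in lymphocytes (interval 13.03% to 14.6%) and 39.7% in macrophages (30.9% to 49.0%) of the cattle-yak. In 6-month replicate 2 it made up 31.0% in lymphocytes (29.9% to 32.1%) and 80.0% in macrophages (51.9% to 95.7%), where 12 of the UMIs were of NKG7 and 3 of CCL5. In 18-month replicate 3 the shares were 26.5% in lymphocytes (25.3% to 27.7%) and 64.3% in macrophages (35.1% to 87.2%), and in 18-month replicate 4 they were 20.5% (19.2% to 21.9%) and 80.0% (51.9% to 95.7%). The intervals did not overlap in these 4 libraries. They did in the 4-year yak, with 18.1% in lymphocytes (16.7% to 19.6%) and 28.6% in macrophages (14.6% to 46.3%). Macrophages of 6-month replicate 1 had 0 UMIs of both genes in 9 cells. These intervals treat each UMI as a separate draw, although 1 cell can give several, so they can be too narrow. In 18-month replicate 3 the macrophages numbered 23, under the 30 cells asked elsewhere.

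The lymphocyte proportion was close to that of the non-blood classes. There NKG7 was 12.6% of both genes' UMIs in the cattle-yak (interval 10.9% to 14.5%), 27.8% in 18-month replicate 3, 23.6% in 18-month replicate 4 and 18.4% in the 4-year yak. Their intervals overlapped those of lymphocytes in each of these, and also in 6-month replicate 2 (34.8%). In 6-month replicate 1 the share was 33.3% in lymphocytes (30.1% to 36.7%) and 19.7% in non-blood classes (13.6% to 27.1%), without overlap.

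**Figure D2:**
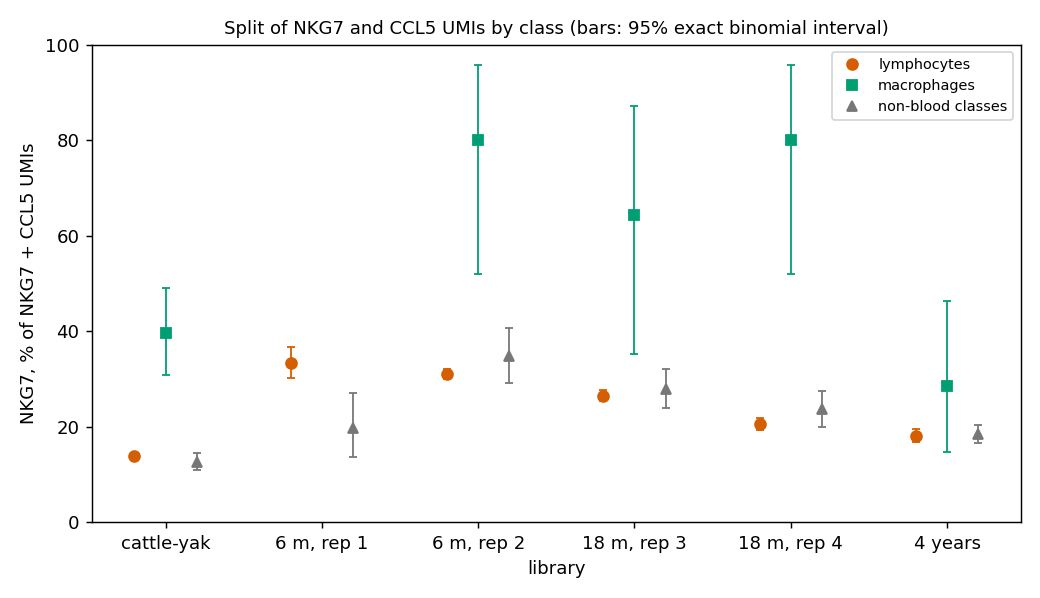
NKG7 as a percentage of NKG7 plus CCL5 UMIs (y axis) in each library (x axis), for lymphocytes, macrophages and non-blood classes, with 95% exact binomial intervals. Lymphocytes lie below macrophages in each of the 5 libraries with a macrophage value, and near non-blood classes except in 6-month replicate 1.

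RNA free in the droplets can give UMIs to cells that do not make a gene. In the cattle-yak, CCL5 was detected in 84.5% of gated lymphocytes and in 28.6% of non-blood cells, with median depths of 1656.5 and 1652 UMIs. In 6-month replicate 1 those shares were 73.8% of lymphocytes and 1.05% of non-blood cells, at 2326 and 1715.5 UMIs. In the 4-year yak, IL7R was detected in 30.8% of lymphocytes (352 CPM) and in 7.87% of the 851 spermatids (40.2 CPM), with median depths of 1682 and 1401 UMIs. The source of the UMIs in these other cells was not tested.

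The cytotoxic genes varied between libraries in gated lymphocytes by up to severalfold. CCL5 had 8963 CPM in the cattle-yak, 3442 and 4508 CPM at 6 months, 3212 and 8421 CPM at 18 months and 8072 CPM at 4 years. Its 3 high libraries were the cattle-yak, 18-month replicate 4 and the 4-year yak, and the 18-month replicates lay on either side of both 6-month libraries. The next gene, NKG7, had 1434 CPM in the cattle-yak, 1721 and 2028 CPM at 6 months, 1156 and 2174 CPM at 18 months and 1789 CPM at 4 years. CST7 had 1025 CPM in the cattle-yak, 984 and 1059 CPM at 6 months, 577 and 1120 CPM at 18 months and 1009 CPM at 4 years. For both genes 18-month replicate 3 was lowest and 18-month replicate 4 highest, so the whole range was spanned within 1 age. GZMA was scarce, with 10 UMIs in the cattle-yak, 8 and 37 at 6 months, 23 and 9 at 18 months and 2 at 4 years. Its level was between 6.96 CPM at 4 years and 50.4 CPM in 6-month replicate 1, and libraries next to each other in level had overlapping intervals. Libraries further apart could differ beyond counting error. GZMA had 35.5 CPM in 6-month replicate 2 (interval 24.96 to 48.9) and 13.5 CPM in the cattle-yak (6.48 to 24.84).

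The T cell receptor genes did not share one order of libraries. TRDC had 1104 CPM in the cattle-yak, 1229 and 1091 CPM at 6 months, 729 and 1491 CPM at 18 months and 1740 CPM at 4 years. It was lowest in 18-month replicate 3, as NKG7, CCL5 and CST7 were. CD3D had 288 CPM in the cattle-yak, 233 and 301 CPM at 6 months, 305 and 477 CPM at 18 months and 205 CPM at 4 years. CD3G had 213 CPM in the cattle-yak, 227 and 168 CPM at 6 months, 173 and 167 CPM at 18 months and 136 CPM at 4 years. The highest CD3G level was 1.67 times the lowest, the narrowest range of the 10 genes in these libraries.

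The 3 remaining genes differed from each other. IL7R had 317 CPM in the cattle-yak, 56.7 and 178 CPM at 6 months, 332 and 207 CPM at 18 months and 352 CPM at 4 years. Both 6-month libraries lay below the other 4 for IL7R, although the intervals of 6-month replicate 2 and 18-month replicate 4 overlapped. LTB had 773 CPM in the cattle-yak, 668 and 807 CPM at 6 months, 648 and 859 CPM at 18 months and 334 CPM at 4 years, so the 4-year yak stood apart. GPR183 had 151 CPM in the cattle-yak, 113 and 118 CPM at 6 months, 77.6 and 51.7 CPM at 18 months and 13.9 CPM at 4 years. The 4-year value rests on 4 UMIs.

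**Figure D3:**
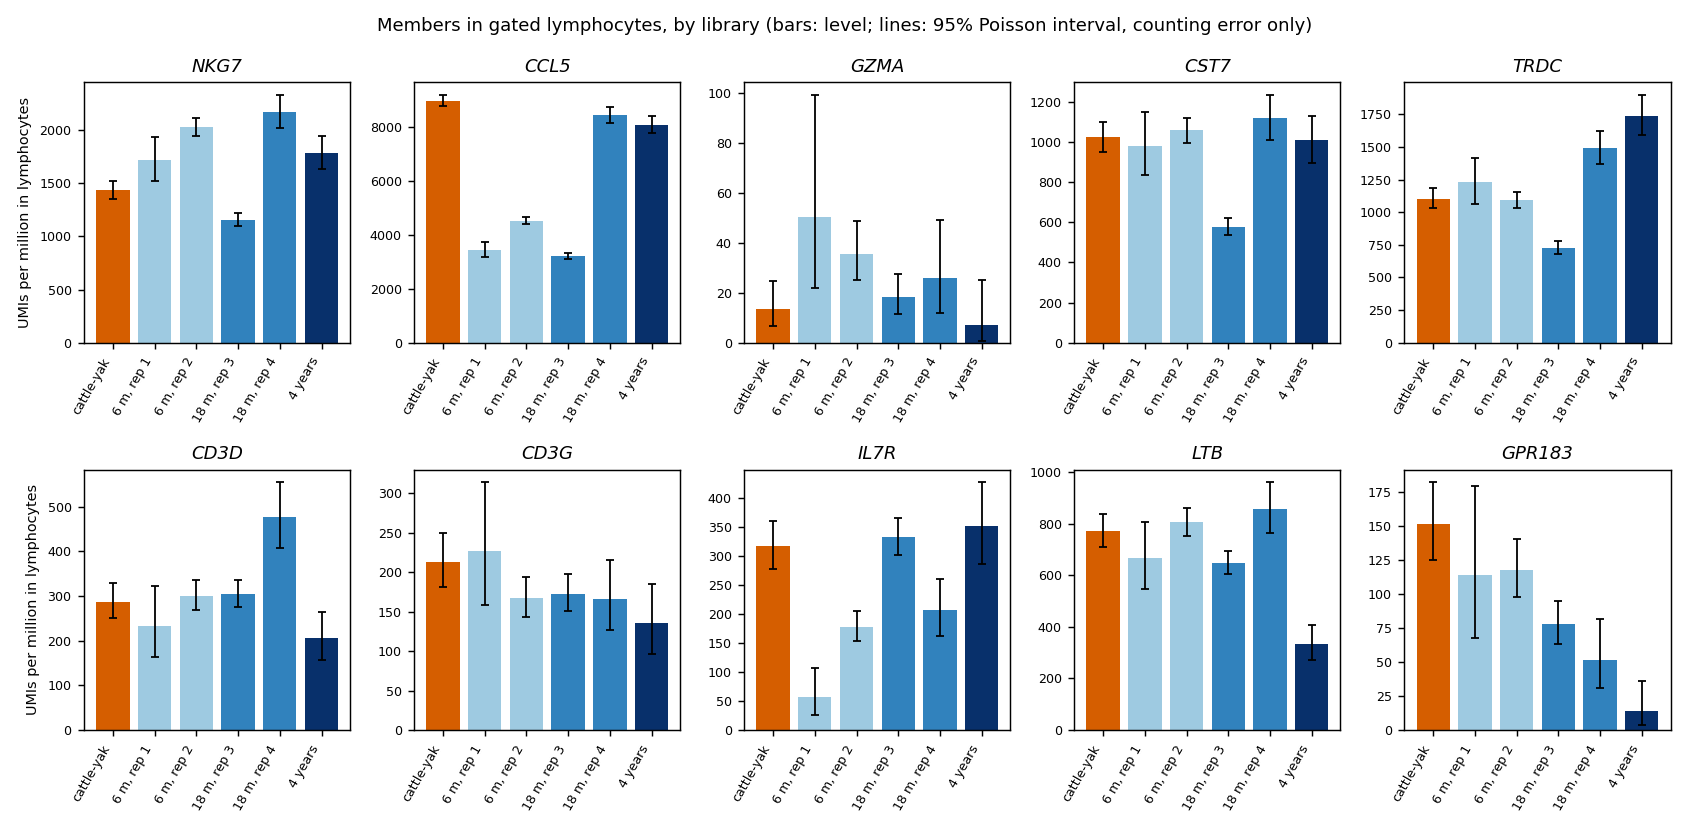
Level of each gene in gated lymphocytes (y axis, UMIs per 1000000, starting at 0) in each library (x axis), with 95% Poisson intervals that cover counting error only. The 18-month replicates differ from each other as much as any libraries do for NKG7 and CST7, while IL7R is lower in both 6-month libraries and GPR183 lowest at 4 years.

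The 18-month and 6-month yak, the groups with 2 libraries each, were compared in gated lymphocytes with edgeR's quasi-likelihood test on summed UMIs. None of the 10 members was called at an adjusted p under 0.05, while 0.138% of the 4353 genes tested were called (0.0459% higher and 0.0919% lower at 18 months). Before adjustment 2 members, IL7R and GPR183, were under 0.05, as were 5.05% of all genes tested, and DESeq2 called 0 members. The members' median log2 difference was -0.10, against 0.05 over all genes tested. IL7R averaged 269 ± 88 CPM at 18 months and 118 ± 86 CPM at 6 months (SD, n = 2 each). Its log2 difference was 1.02 ± 0.49 (SE; edgeR adjusted p = 0.959). GPR183 averaged 64.7 ± 18.3 CPM at 18 months and 115.7 ± 3.1 CPM at 6 months (SD, n = 2 each). Its log2 difference was -0.89 ± 0.43 (SE; edgeR adjusted p = 0.961). For both genes the differences did not pass over all genes.

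CCL5 averaged 5817 ± 3684 CPM in 18-month lymphocytes and 3975 ± 753 CPM in 6-month lymphocytes (SD, n = 2 each), a log2 difference of 0.58 ± 0.55 (SE; edgeR adjusted p = 0.995). This rested on replicate 4: without 18-month replicate 3 the difference was 1.19 and passed the threshold (edgeR adjusted p = 0.00563), and without 18-month replicate 4 it was -0.58. The log2 differences of the other 7 genes lay between -1.004 for GZMA and 0.52 for CD3D, with adjusted p of 0.995 or more by edgeR.

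In whole libraries, where all kept cells were summed, fewer cells of a type and less RNA per cell cannot be told apart. CCL5 had 2217 CPM in the cattle-yak, 74.4 and 614 CPM at 6 months, 306 and 388 CPM at 18 months and 705 CPM at 4 years. The cattle-yak was highest and 6-month replicate 1 lowest. NKG7 had 381 CPM in the cattle-yak, 35.5 and 278 CPM at 6 months, 112 and 99.9 CPM at 18 months and 149 CPM at 4 years. IL7R had 128 CPM in the cattle-yak, 4.05 and 41.0 CPM at 6 months, 40.1 and 16.0 CPM at 18 months and 58.2 CPM at 4 years. For all 3 genes both 18-month libraries lay between the 6-month replicates. The cattle-yak also had the highest share of gated lymphocytes (10.98%) and 6-month replicate 1 the lowest (0.825%), and the part of that share in these levels was not tested.

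None of the 10 members was called between 18 and 6 months in whole libraries by edgeR's quasi-likelihood test, while 2.61% of the 13553 genes tested were called (1.89% higher and 0.723% lower at 18 months). GPR183 was the 1 member under 0.05 before adjustment, where 23.0% of all genes tested were. The members' log2 differences lay between -2.04 ± 0.76 for GPR183 (SE; edgeR adjusted p = 0.178) and -0.80 ± 0.89 for IL7R (SE; edgeR adjusted p = 0.624). Their median was -1.50, against -0.04 over all genes tested. That median over all genes was 1.03 when libraries were scaled by their totals in place of TMM (edgeR's trimmed mean normalisation). The split over all genes was 256 called higher and 98 lower with TMM, and 2941 and 87 with library totals. With those totals CCL5, CD3D and IL7R had positive differences of 0.013, 0.058 and 0.32. Without 6-month replicate 2, 8 of the 10 differences turned positive, all but those of GZMA and GPR183. With no filter on low counts CST7, TRDC, LTB and GPR183 were called lower at 18 months, and with DESeq2 GPR183 alone was.

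The cattle-yak was compared with the 4-year yak, the mature hybrid with the mature parent species, in gated lymphocytes. With 1 library each there was no test, and the ratios below carry only counting intervals. LTB had 773 CPM (572 UMIs) in the cattle-yak and 334 CPM (96 UMIs) in the 4-year yak, a ratio of 2.31 (interval 1.86 to 2.90). For GPR183 the cattle-yak held 112 UMIs and the 4-year yak 4, a ratio of 10.9 (4.13 to 40.6). It was 3.70 with a gate of at least 3 markers and 7.79 with a gate of at least 1 marker. Both genes were thus higher in the hybrid's lymphocytes, and for LTB the cattle-yak lay within the range of the 6-month and 18-month libraries, with the 4-year yak below it.

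The T cell receptor chains of CD3 were also higher in the cattle-yak, by 1.40 for CD3D (1.05 to 1.90) and 1.57 for CD3G (1.10 to 2.29) as ratios of the hybrid to the 4-year yak. TRDC, the delta chain gene, was lower, with 1104 CPM in the cattle-yak and 1740 CPM in the 4-year yak, a ratio of 0.634 (0.567 to 0.710). Its share of cells was lower too, at 32.4% of thinned lymphocytes in the cattle-yak and 61.4% in the 4-year yak. Thinned cells were reduced to 1000 UMIs each, so that depth did not set their shares. NKG7 had a ratio of 0.802 (0.721 to 0.893) and CCL5 one of 1.11 (1.06 to 1.16). The intervals for CST7 (1.02), IL7R (0.903) and GZMA (1.94, from 10 UMIs in the cattle-yak and 2 in the 4-year yak) included equality.

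Cells were then asked which of the 10 genes they held together. Each lymphocyte was thinned to 1000 UMIs, which left 373 cells in the cattle-yak, 61 and 337 at 6 months, 357 and 117 at 18 months and 140 at 4 years. At least 1 cytotoxic gene was detected in 93.8% of thinned lymphocytes of the cattle-yak, in 91.8% and 92.3% at 6 months, in 80.1% and 94.9% at 18 months and in 97.1% at 4 years. CD3D or CD3G was detected in 36.5% in the cattle-yak, 31.1% and 39.5% at 6 months, 36.1% and 48.7% at 18 months and 30.0% at 4 years. Cells with at least 2 cytotoxic genes and no TRDC, CD3D or CD3G UMI made up 31.1% in the cattle-yak, 18.03% and 19.6% at 6 months, 27.2% and 19.7% at 18 months and 20.7% at 4 years. At this depth a missing UMI does not show a missing transcript, so these cells cannot be told apart from T cells in which the receptor genes went undetected.

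The 45 pairs of members were compared by the log2 odds ratio of co-detection, in which a positive value means that the 2 genes shared cells more often than their separate shares give. None passed after adjustment (lowest adjusted p = 0.128, exact sign-flip permutation over 6 libraries, two-sided). With 6 libraries the smallest p this test can give is 0.03125, and 11 pairs had it, meaning the same sign in 6 of 6 libraries. Thinning draws UMIs at random, and low counts change from draw to draw. In a second draw, from which the shares of cells given here were taken, 14 pairs had 1 sign throughout, and 8 pairs had the same sign throughout in both draws. Of the 45 pairs, 4 had 1 sign in 6 of 6 libraries in each of 9 settings tried, namely IL7R with GPR183, CCL5 with IL7R, NKG7 with IL7R and NKG7 with GPR183. For pairs with IL7R, the sign in 6-month replicate 1 rests on very few IL7R cells and on the 0.5 added to each count. For pairs with GPR183, the sign in the 4-year yak likewise rests on very few GPR183 cells.

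NKG7 and CCL5, the granule protein and the chemokine, were found together, with a mean log2 odds ratio of 2.72 ± 0.71 (SD, n = 6; exact permutation p = 0.03125, adjusted p = 0.128). CCL5 was detected in 89.2% of cells with an NKG7 UMI and in 66.4% of those without in the cattle-yak. The corresponding shares were 79.4% and 33.3% in 6-month replicate 2, 80.1% and 35.4% in 18-month replicate 3, and 97.2% and 82.4% in the 4-year yak. TRDC was found with NKG7, at 1.33 ± 0.64 (SD, n = 6; positive in 6 of 6 libraries in both draws; exact permutation p = 0.03125). TRDC and CCL5 averaged 1.37 ± 1.17 (SD, n = 6), with 1 negative library, 18-month replicate 4, in the second draw. NKG7 was detected in 79.3% of TRDC-positive and 65.1% of TRDC-negative cells of the cattle-yak, in 87.8% and 61.9% of those of 6-month replicate 2, and in 83.7% and 63.0% of those of the 4-year yak. The relation of NKG7 to TRDC was weakest in 18-month replicate 3, with a log2 odds ratio of 0.48 in the second draw. That of 18-month replicate 4 was 1.05.

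IL7R and GPR183 were detected together with NKG7 and CCL5 less often than their separate shares give. The mean log2 odds ratio was -2.88 ± 1.00 for CCL5 and IL7R, -2.42 ± 1.18 for NKG7 and IL7R, -3.43 ± 1.83 for CCL5 and GPR183 and -2.88 ± 0.90 for NKG7 and GPR183 (SD, n = 6 each; negative in 6 of 6 libraries; exact permutation p = 0.03125, adjusted p = 0.128). CST7 and IL7R had a mean of -0.93 ± 0.84 (SD, n = 6). The low counts of these genes bear on single libraries: 6-month replicate 1 had 1 thinned lymphocyte with IL7R, so its odds ratios there rest on the 0.5 added to each cell of the count table.

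In the cattle-yak, CCL5 was detected in 67.7% of 62 IL7R-positive lymphocytes and in 85.2% of 311 IL7R-negative ones. The shares were 16.1% of 31 IL7R-positive and 72.2% of 306 IL7R-negative cells in 6-month replicate 2, and 21.0% of 81 and 71.4% of 276 in 18-month replicate 3. In 18-month replicate 4 they were 27.3% of 11 IL7R-positive and 84.0% of 106 IL7R-negative cells, and in the 4-year yak 84.4% of 32 and 96.3% of 108. The gap between these shares was wide in the 6-month and 18-month yak and narrow in the 4-year yak and the cattle-yak, where most IL7R-positive cells also held CCL5. As log2 odds ratios, the same draw gave -2.22 in the 4-year yak and -1.46 in the cattle-yak, against -3.64 to -2.57 in the younger libraries. The relation of CCL5 to IL7R thus stayed negative in every library, and at 4 years nearly all IL7R-negative cells held CCL5. NKG7 was detected in 48.4% of IL7R-positive and 74.0% of IL7R-negative cells in the cattle-yak, 22.6% and 78.4% in 6-month replicate 2, 17.3% and 65.9% in 18-month replicate 3, 36.4% and 75.5% in 18-month replicate 4 and 75.0% and 75.9% in the 4-year yak. Lymphocytes with IL7R and at least 2 cytotoxic genes made up 9.92% in the cattle-yak and 19.3% in the 4-year yak, and between 0 and 3.42% in the 4 younger libraries, where 0 of 61 cells in 6-month replicate 1 allows up to 5.87%. The 2 mature libraries are also those in which CCL5 was detected in 28.6% (cattle-yak) and 15.4% (4-year yak) of non-blood cells, against 1.05% to 11.2% in the younger libraries. The part of such UMIs in the narrower gap was not tested, and neither was the difference between ages.

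**Figure D4:**
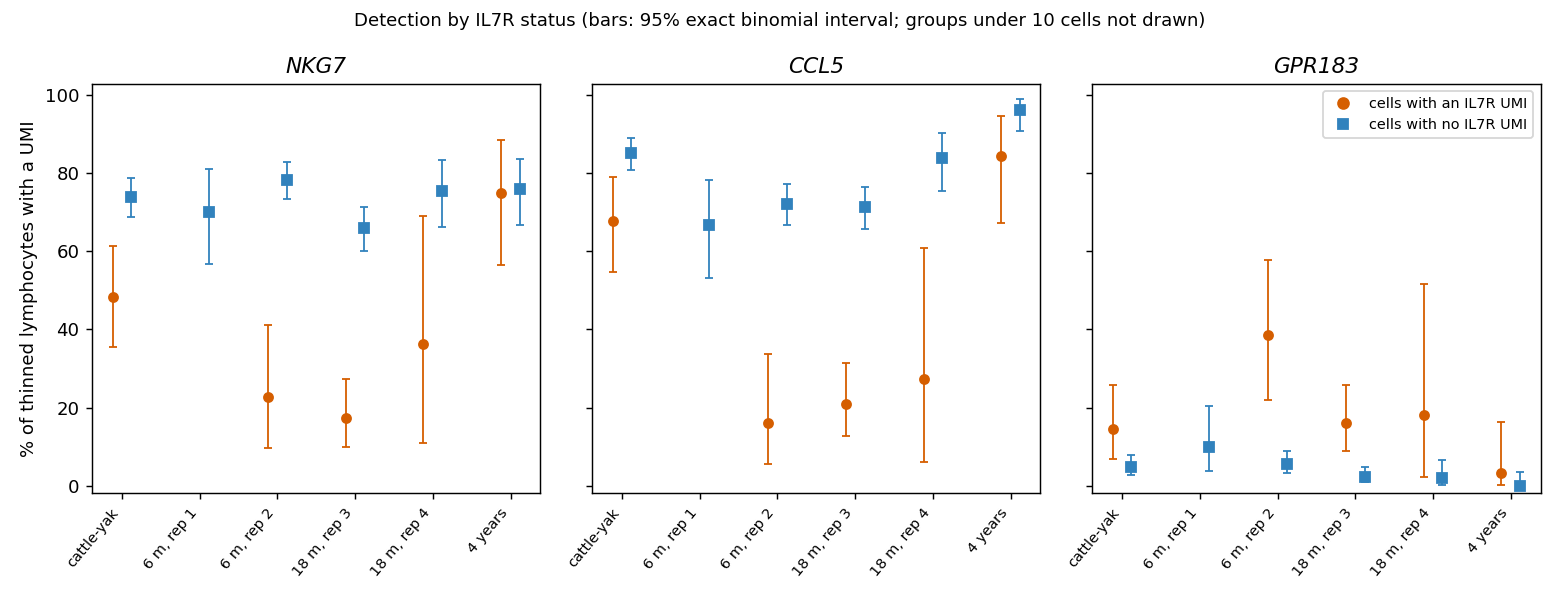
Percentage of lymphocytes, thinned to 1000 UMIs, with a UMI of NKG7, CCL5 or GPR183 (y axis) among cells with and without an IL7R UMI, by library (x axis), with 95% exact binomial intervals; groups under 10 cells are not drawn. NKG7 and CCL5 are less frequent in IL7R-positive cells in the 6-month and 18-month libraries drawn, and NKG7 is level at 4 years (75.0% and 75.9%).

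GPR183 was found with IL7R, at a mean log2 odds ratio of 3.27 ± 0.56 (SD, n = 6; positive in 6 of 6 libraries; exact permutation p = 0.03125, adjusted p = 0.128). It was detected in 14.5% of IL7R-positive and 4.82% of IL7R-negative lymphocytes in the cattle-yak, in 38.7% and 5.56% in 6-month replicate 2, in 16.0% and 2.17% in 18-month replicate 3 and in 18.2% and 1.89% in 18-month replicate 4. In the draw of these shares, cells with both numbered 9 in the cattle-yak, 0 and 12 at 6 months, 13 and 2 at 18 months and 1 at 4 years. The receptor chain gene CD3D had no steady relation to IL7R, with 6 of 6 libraries positive in the first draw and 3 of 6 in the second. CD3D and CD3G, chains of one complex, were positive together in 3 of 6 libraries in the first draw and in 5 of 6 in the second.

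**Figure D5:**
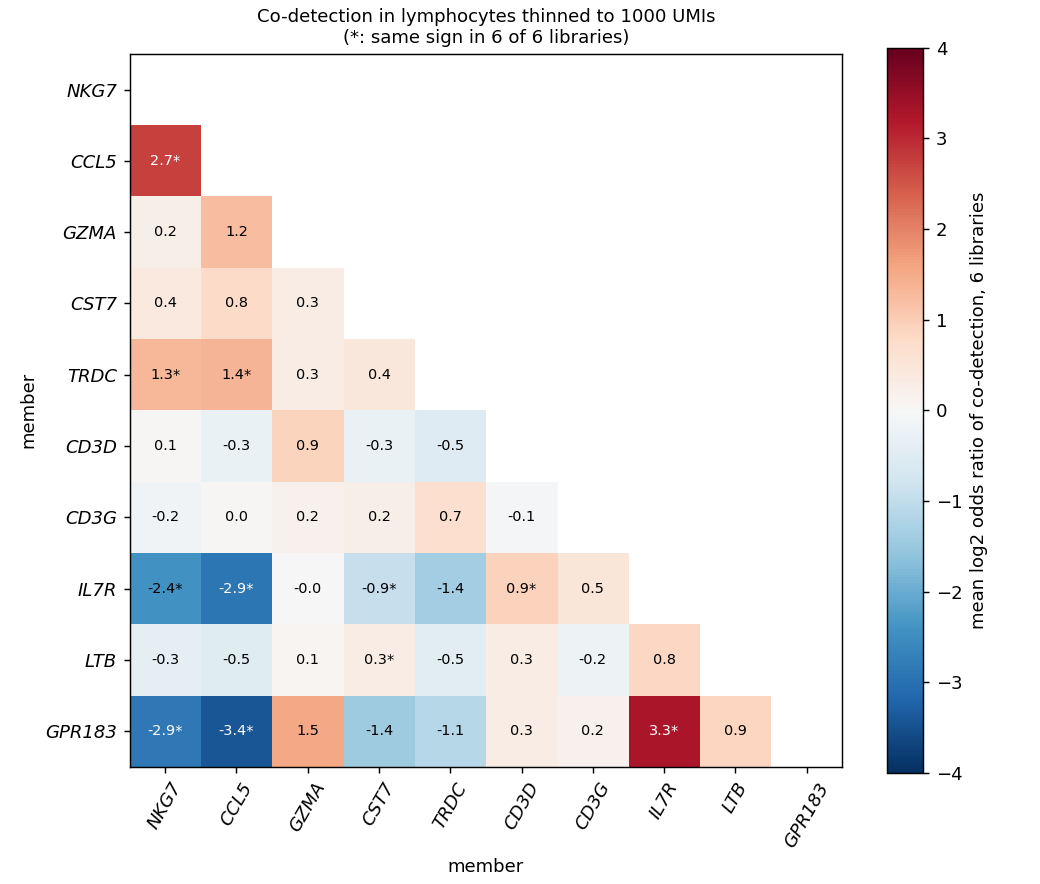
Mean over 6 libraries of the log2 odds ratio of co-detection for each of the 45 pairs of members (both axes list the 10 genes), with an asterisk where all 6 libraries had the same sign in the first of the 2 random draws. IL7R and GPR183 are positive with each other and negative with NKG7 and CCL5, which are positive with each other.

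Genes outside the 10 were ranked by the same odds ratio among 1661 genes detected in at least 5% of thinned lymphocytes. For IL7R the first was CD40LG, the ligand by which helper T cells engage CD40 (2.88 ± 1.30, SD, positive in 6 of 6 libraries, detected in 6.86% of lymphocytes). The other 4 of the first 5 carry an identifier only. For NKG7 the first was RPL10L, named in the files as a ribosomal protein gene and detected in 98.6% of lymphocytes, and the other 4 carry an identifier only. These likenesses are descriptions over 6 libraries and share the cells' depth.

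Lists of related lymphocyte genes were read beside the members. Of the T cell receptor and signalling list, 14 of 19 genes were matched, and CD247, which codes for the zeta chain, had 124 CPM in lymphocytes of the cattle-yak, 88.3 and 130 CPM at 6 months, 79.2 and 80.4 CPM at 18 months and 160 CPM at 4 years. CD247 was also a gate marker. Of the cytotoxic granule and NK receptor list, 13 of 26 genes were matched. GZMK, which codes for granzyme K, had 590 CPM in the cattle-yak, 75.7 and 167 CPM at 6 months, 135 and 244 CPM at 18 months and 801 CPM at 4 years. Its 2 highest libraries were thus the mature ones. NCR3, an activating NK receptor gene, averaged 240 CPM and SRGN, which codes for the granule proteoglycan serglycin, 164 CPM.

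Between 18 and 6 months edgeR called 0 of the lists' 38 genes tested in lymphocytes and 0 of 54 in whole libraries, with 5 and 9 of them under 0.05 before adjustment (13.2% and 16.7%, against 5.05% and 23.0% of all genes tested). Against macrophages, 4 of the 5 tested genes of the granule and NK list were higher in lymphocytes by edgeR's test (GZMK, GZMM, KLRK1 and NCR3), where 15.7% of all genes were. GZMK differed by 5.54 ± 0.47 (log2, SE; edgeR adjusted p = 2.99e-07), and SRGN, which macrophages also use, by 0.00 ± 0.26. Of the cytokine, chemokine receptor and integrin list, 4 of 5 tested genes were higher (IFNG, CXCR3, CXCR4 and S100A4). CXCR4 had 878 CPM in lymphocytes of the cattle-yak, 372 and 367 CPM at 6 months, 447 and 781 CPM at 18 months and 975 CPM at 4 years, and S100A4 and the integrin gene ITGB2 averaged 954 and 244 CPM over the libraries. The T cell signalling list had 2 tested genes, of which the gate marker CD247 was higher. Here too, genes scarce in macrophages could pass the filter only through lymphocytes, so these counts describe the lists and do not test them.

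The naive, memory and regulatory T cell list had 15 of 16 genes matched. KLF2, a factor of resting T cells, averaged 199 CPM in lymphocytes and was lower there than in macrophages by 2.98 on the log2 scale, a difference of -2.98 ± 0.43 (SE; edgeR adjusted p = 6.07e-05). CD44 averaged 128 CPM and CD40LG 83.9 CPM. Of the gamma-delta T cell list, 7 of 10 genes were matched, and 4 of these had a median of 0 CPM over the libraries. GATA3 averaged 38.2 CPM and ZBTB16 3.4 CPM, and none of the list was tested against macrophages.

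Ligands and receptors that the members bind were scarce where reported here. IL7, the ligand of IL7R, had 11.1 CPM in the stroma of 6-month replicate 2 (30 UMIs). LTA and CCR3 each averaged under 1 CPM in lymphocytes.

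In the reference annotation of the yak assembly Bosgru_T2T1.0, 8 of the 10 members were matched by symbol. Of the feature identifiers, 0 matched its protein-coding genes, so its gene order may differ from that of the annotation used for counting. CD3D lies there between CD3E and CD3G, and LTB between LST1 and TNF. Reads near the shared ends of such neighbours could be assigned to either gene, and how the counting treated strand and overlap is not stated in the labels or file headers.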

How the data were processed

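The authors deposited raw UMI counts per gene and barcode. Cell Ranger made them, in version 5.0.0 per the file headers, while the submitters' processing notes name version 2.1.1. No genome build is given in the sources used here. Barcodes needed 300 genes or more and no more than 20% mitochondrial UMIs, and those with the highest Scrublet scores (0.8% per 1000 barcodes) were removed as doublets. Scrublet's own threshold marked 269 and 181 barcodes in the 6-month libraries, 1 in 18-month replicate 3 and 0 elsewhere, so ranks were used. Libraries shared 5 to 16 barcodes.

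Cells were gated by 13 marker lists (at least 2 detected markers and more than of any other list). Of 22 listed lymphocyte markers, the 15 that the feature lists name were used. The others, among them CD2, CD3E, CD7 and TRAC, are not named there and could not enter the gate. Summed counts were tested with edgeR 4.0.16 (filterByExpr, TMM, quasi-likelihood, Benjamini-Hochberg over all genes tested), with DESeq2 1.42.0 as an alternative. Co-detection used lymphocytes thinned at random to 1000 UMIs, log2 odds ratios with 0.5 added to each count, and an exact sign-flip permutation test over 6 libraries, adjusted over 45 pairs. Shares of thinned cells came from a second random draw, over all kept cells. Intervals are exact 95% Poisson or binomial intervals, and UMI counts limit precision to counting error. The tests were checked on simulated data.

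All 10 members were named in every comparison. Of each pathway list the called genes and the 3 with the highest mean CPM in lymphocytes were named, and for NKG7 and IL7R the 5 most alike genes. Some of the genes this rule names are not reported here. The members, lists and gates were chosen with earlier results of these data known. Promoter and protein sequences were not used here. The gate of at least 1 marker and the odds ratios of the second draw were added after the data were seen.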

Additional observations from a re-analysis of the deposited data

How the results depend on the processing

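No paired analysis was possible because 18 and 6 months, and the cattle-yak and the 4-year yak, share no replicate numbers in the labels. Lymphocytes and macrophages were fitted with the library as a block. Between 18 and 6 months in whole libraries, the number of members called was 0 in the analysis as reported, 4 without a filter on low counts and 1 with DESeq2. With library totals the log2 differences of CCL5, CD3D and IL7R were 0.013, 0.058 and 0.32. Leaving out single libraries moved the log2 difference between -2.39 and 0.50 for NKG7, -1.75 and 1.22 for CCL5, -2.45 and 0.41 for CST7, -2.29 and 0.035 for TRDC, -1.84 and 1.09 for CD3D, -1.94 and 0.50 for CD3G, -1.71 and 1.55 for IL7R and -2.33 and 0.36 for LTB. The lowest value came without 6-month replicate 1 and the highest without 6-month replicate 2 in each of these. Over all genes tested, 354 were called as reported, 3028 with library totals, 2206 without the filter, 1171 with DESeq2 and 575 with the stricter cell filter. Without single libraries the count was between 0 (without 6-month replicate 2, with 2088 genes at an unadjusted p under 0.05, or without 18-month replicate 3, with 2273) and 2467.

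In lymphocytes between 18 and 6 months, the number of members called without single libraries was between 0 and 1, with CCL5 called without 18-month replicate 3. The log2 difference then ranged between -0.97 and 0.32 for NKG7, -0.58 and 1.19 for CCL5, -1.09 and 0.24 for CST7, -0.93 and 0.47 for TRDC, -0.11 and 0.92 for CD3D and -0.46 and 0.32 for LTB. TRDC was at 0.041 with the stricter cell filter. LTB was at -0.016 with DESeq2, -0.058 with doublets kept and -3.2e-05 with up to 40% mitochondrial UMIs. Over all genes 6 were called as reported, 25 without the filter, 3 with the stricter cell filter and 7 to 261 without single libraries. A gate of at least 3 markers left a library with under 30 lymphocytes and was not run.

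Against macrophages, 8 members were called in 11 of 12 alternatives and 9 without the filter on low counts, where GZMA entered. GPR183 was at -0.016 with library totals, at -0.032 with doublets kept and between -0.31 and 0.61 without single libraries. The stricter cell filter was not run, as too few macrophages remained. Over all genes 650 were called as reported and 1178 without the filter.

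No co-detection pair passed under any of the 14 alternatives, and with 5 libraries the smallest possible p is 0.0625. Of the 11 pairs with 1 sign in 6 libraries, 10 kept their mean's sign throughout. CST7 and LTB was at 0.29 as reported, -0.0020 with the stricter cell filter, -0.38 with a gate of at least 3 markers, -0.043 without shared markers, -0.12 with a gate of at least 1 marker, -0.29 without thinning and -0.20 in the second thinning draw. Between the cattle-yak and the 4-year yak, 5 of 40 alternative ratios left the counting interval. The stricter cell filter was not among those 40. With it NKG7 (0.895, interval 0.769 to 1.05), CCL5 (1.20) and LTB (1.75) also left the interval. The CD3D interval included equality with gates of at least 3 markers (0.986 to 2.69) and of at least 1 marker (0.880 to 1.45). That of CD3G did so with at least 3 markers (0.984 to 3.99). The causes of these changes were not tested. Depth limits GZMA, GPR183 and the macrophage counts most.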

Other observations

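CD52, which codes for a small surface protein of lymphocytes, was present in the counts almost only in 18-month replicate 3. Over all barcodes it had 2 UMIs in the cattle-yak, 0 and 0 in the 6-month libraries, 144 and 0 in the 18-month libraries and 0 in the 4-year yak. In gated lymphocytes of 18-month replicate 3 it was detected in 20.3% of cells (68.1 CPM). The same library had the lowest CPM of NKG7, CCL5, CST7 and TRDC in lymphocytes, and the cause was not tested. CD52 was among the lymphocyte markers of the gate, and it was chosen here after its values were seen.

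S100A4, a calcium-binding protein gene of motile leukocytes, had 3238 CPM in lymphocytes of the cattle-yak, 240 and 67.1 CPM at 6 months, 599 and 480 CPM at 18 months and 1100 CPM at 4 years. It was not called between 18 and 6 months by edgeR, and no test covers the cattle-yak and the 4-year yak.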
